A study of Mus musculus with 8 samples.

Results

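The genes described here encode the killing machinery of cytotoxic T cells: the granzymes *Gzma*, *Gzmb*, *Gzmc*, *Gzmd*, *Gzme*, *Gzmf*, *Gzmk* and *Gzmm*, the pore-forming protein perforin (*Prf1*) and the granule proteoglycan serglycin (*Srgn*). The 10 symbols were matched to Ensembl identifiers (GRCm38, release 96) among the 55536 genes in the count tables. Of these, 5 (*Gzmb*, *Gzma*, *Gzmc*, *Prf1* and *Srgn*) exceeded 3 CPM (counts scaled by the total of the library) in at least 4 libraries and so were among the 11189 genes tested, and each of the 5 exceeded it in all 8 libraries. The other 5 granzymes fell below that minimum and are described by their counts.

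Messenger RNA was sequenced from CD8+ T cells of OT-1 mice, a strain in which a receptor transgene fixes the specificity for the ovalbumin peptide SIINFEKL. By the study's methods the lymph node donors were Rag-1KO, so both groups came from mice without other T or B cell receptors. The cells spent 2 days with 100 nM of the peptide and were then held in 20 ng/ml IL-2 for 2 days, either with 10 µM GC7 (GC7, 4 libraries) or with its acetic acid vehicle (mock, 4 libraries). GC7 is a spermidine derivative that blocks DHPS, the enzyme that begins hypusination of the translation factor eIF5a, and the comparison asks which mRNAs change under the drug. The drug was the only perturbation analysed here, with no knockout libraries. The methods call the libraries biological replicates without saying which share a mouse, so the p-values measure the spread between these libraries.

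Cytotoxic T cells store granzymes, a family of serine proteases, in secretory lysosomes together with perforin, held on the sulphated sugar chains of serglycin. When the cell meets its target, the granules fuse with the membrane, perforin opens the target cell and the granzymes enter and cleave proteins that set off cell death. In mouse T cells these genes are switched on after activation, and IL-2 sustains them.

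Libraries held between 17528776 and 25284730 counts, and the factors that scale them by the trimmed mean of M values (TMM) lay between 0.935 and 1.04. Over all tested genes the median log2 fold change was 0.02, and with library totals in place of TMM it moved to 0.11, so changes below are relative to the bulk of mRNAs. The 6 markers of CD8 T cells were all tested, with a summed level of 2570 to 3160 scaled CPM in mock and 2570 to 2760 in GC7 libraries. Within that sum *Cd8a* was higher (log2 fold change 0.48, adjusted p = 3.43e-05), while *Cd3e* (-0.23, 0.00789), *Cd3g* (-0.37, 0.00412) and *Trac* (-0.38, 0.000734) were lower and *Cd8b1* (-0.18) and *Cd3d* (-0.27) were not called by edgeR's test. No marker of CD4 T cells, B cells, NK cells, macrophages, neutrophils, mast cells or dendritic cells passed the filter, and none exceeded 27 counts in any library. NK markers, from the other main source of granzymes, summed to 0.419 to 0.564 scaled CPM in mock and 0.446 to 1.09 in GC7 libraries. Mitochondrially encoded RNA, at 1.83% to 1.94% of counts in mock and 0.194% to 0.225% in GC7 libraries, separated the groups, and scaling without those genes changed no call among the 5 tested genes. Mock replicate 2 lay more than 2-fold below every other mock library in 55 genes, none of them a granule gene listed above, and GC7 replicate 3 lay that far below every other GC7 library in 10 genes, *Gzma* among them.

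Perforin mRNA fell most among the 5 tested genes. *Prf1* (ENSMUSG00000037202, chr10:61297833-61304680, GRCm38) stood at 90.9, 75.5, 78.3 and 77.9 scaled CPM in mock replicates 1 to 4. Replicates 1 to 4 of GC7 stood at 37.1, 30.7, 19.1 and 29.9. All 4 GC7 libraries lay below all 4 mock libraries, by a wide gap, with GC7 replicate 3 the lowest. The means were 80.7 ± 6.94 and 29.2 ± 7.49 (SD, n = 4 each), so that the level was 2.75-fold lower, at -1.46 ± 0.151 (SE) on the log2 scale (edgeR's quasi-likelihood test, adjusted p = 5.3e-06). Among tested genes ordered by mean CPM, *Prf1* moved from rank 2663 to rank 6156. As single libraries were left out the change ranged from -1.60 to -1.31, and it passed the 0.01 threshold each time. In these bulk libraries, fewer cells that express a gene and less RNA per cell cannot be told apart.

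Granzyme B, which cleaves after aspartate and activates caspases and BID in the target cell, was by far the most abundant of the family and fell by a smaller factor. *Gzmb* (ENSMUSG00000015437, chr14:56258838-56262260) stood at 4733, 4817, 3968 and 4236 scaled CPM in mock replicates 1 to 4. With GC7 the replicates stood at 3440, 3237, 1901 and 3049. The groups did not overlap, and GC7 replicate 3 was well below the rest of its group. The means were 4438.5 ± 405 and 2907 ± 689, or 1.53-fold lower, at -0.61 ± 0.154 (SE) on the log2 scale (edgeR, adjusted p = 0.00448). Even so *Gzmb* remained among the most abundant mRNAs of these cells, at rank 12 of the tested genes in mock and rank 16 in GC7 libraries. Its adjusted p rose to 0.013 without mock replicate 1 (log2 fold change -0.58), to 0.0104 without GC7 replicate 4 (-0.64) and to 0.0118 with library totals (-0.51), each above 0.01 in edgeR's test.

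Granzyme A, which cleaves after lysine and arginine, also fell, but the libraries scattered more. *Gzma* (ENSMUSG00000023132, chr13:113093825-113100981) stood at 20.4, 36.5, 24.3 and 26.1 scaled CPM in mock replicates 1 to 4. Under GC7 it stood at 12.4, 17.1, 4.30 and 16.9. Every GC7 library was below every mock library, with mock replicate 2 the highest and GC7 replicate 3 far below all others. The means were 26.8 ± 6.87 and 12.7 ± 5.99, or 2.10-fold lower, at -1.07 ± 0.303 (SE) on the log2 scale (edgeR, adjusted p = 0.00909). This call lay close to the threshold of 0.01. The adjusted p was 0.0222 without mock replicate 2 (log2 fold change -0.87), 0.0147 without mock replicate 3 (-1.11), 0.0178 without mock replicate 4 (-1.08) and 0.0231 without GC7 replicate 1 (-1.06), while without GC7 replicate 3 it was 0.00452 at a smaller change of -0.80. With DESeq2 the adjusted p was 0.0261 (-1.09), and with library totals in edgeR 0.0164 (-0.97).

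Granzyme C moved the other way. It belongs to a group of proteases next to *Gzmb* that rodents have and humans lack. *Gzmc* (ENSMUSG00000079186, chr14:56231441-56234656) stood at 37.1, 53.3, 38.1 and 35.7 scaled CPM in mock replicates 1 to 4. The GC7 values were 75.6, 65.7, 46.3 and 63.2. The groups overlapped, because mock replicate 2 was above GC7 replicate 3. The means were 41.0 ± 8.21 and 62.7 ± 12.1, or 1.53-fold higher, at 0.61 ± 0.151 (SE) on the log2 scale (edgeR, adjusted p = 0.00404). Without both overlapping libraries the change was 0.88 (adjusted p = 2.44e-08, edgeR, a setting chosen after seeing the data). The call passed 0.01 without mock replicate 2 or without GC7 replicate 3. It missed 0.01 without mock replicate 1 (log2 fold change 0.56, adjusted p = 0.0138), mock replicate 3 (0.58, 0.0134), mock replicate 4 (0.55, 0.0144), GC7 replicate 1 (0.50, 0.0157), GC7 replicate 2 (0.58, 0.0125) or GC7 replicate 4 (0.60, 0.0113) in edgeR's test.

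Serglycin mRNA did not pass the test. *Srgn* (ENSMUSG00000020077, chr10:62493833-62527451) stood at 333, 386, 327 and 331 scaled CPM in mock replicates 1 to 4. In the GC7 replicates it stood at 301, 296, 334 and 310. The groups overlapped, with GC7 replicate 3, the lowest library for *Prf1*, *Gzmb*, *Gzma* and (in its group) *Gzmc*, now the highest of its group. The difference was -0.15 ± 0.0710 (SE) on the log2 scale (edgeR, adjusted p = 0.0859), with means of 344 ± 28.0 and 310 ± 16.9.

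**Figure D1:**
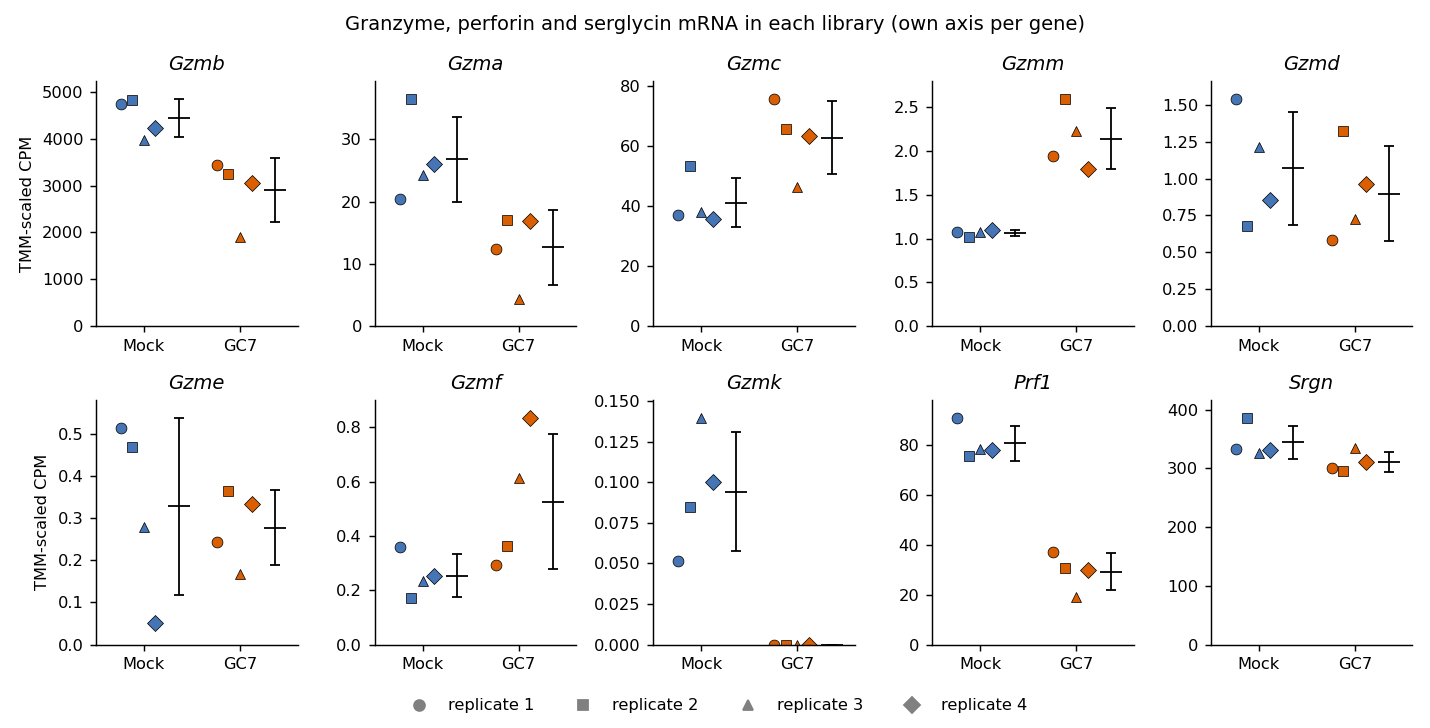
TMM-scaled CPM (y axis, linear, from 0, own range for each gene) of the 10 genes in the 4 mock (blue) and 4 GC7 (orange) libraries, with marker shapes for replicates 1 to 4 and the group mean ± SD in black. *Prf1*, *Gzmb* and *Gzma* are lower in every GC7 library than in any mock library, *Gzmm* is higher in every one, and *Gzmc* and *Srgn* overlap between the groups.

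Of the 5 tested genes, 3 were thus lower (*Prf1*, *Gzma* and *Gzmb*) against 23.5% of all tested genes called lower at a false discovery rate (FDR) under 0.01, and 1 was higher (*Gzmc*) against 23.0% called higher. By more than 2-fold, *Prf1* and *Gzma* were lower against 5.31% of all tested genes, and no granule gene of the 5 was higher, against 3.17%. Over all tested genes 2635 were called lower and 2579 higher, or 2058 lower and 3346 higher with library totals. The log2 fold change of *Prf1* lay above 2.82% of all tested genes, that of *Gzma* above 4.65%, *Gzmb* above 11.4%, *Srgn* above 34.1% and *Gzmc* above 90.5%. With mock replicate 2 and GC7 replicate 3 both left out, the count stayed at 3 lower and 1 higher.

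**Figure D2:**
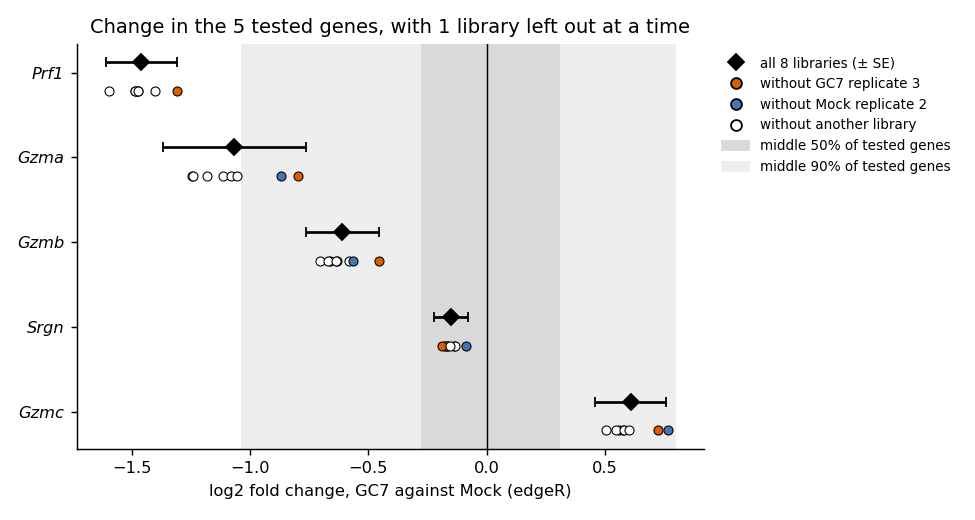
Log2 fold change (x axis, GC7 against mock, edgeR) of the 5 tested genes with all 8 libraries (black diamonds ± SE) and with each library left out in turn (circles below), over grey bands for the middle 50% and 90% of all tested genes. *Prf1* lies outside the wider band with any library left out, whereas *Gzma* and *Gzmb* move towards 0 without GC7 replicate 3 (to -0.80 and -0.46).

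Counts of the granule genes in 1 library share that library's depth, so ratios between them need no scaling factor, and these ratios differed between the groups for several of the genes. One *Prf1* count stood against 52.1, 63.8, 50.7 and 54.4 *Gzmb* counts in mock replicates 1 to 4. In the GC7 replicates it stood against 92.6, 105, 99.5 and 102 *Gzmb* counts. The ratio separated the groups cleanly, and GC7 replicate 3, low in both genes, fell within its group. *Prf1* thus fell 1.81-fold more than *Gzmb*, a log2 difference of -0.86 in the ratio (two-sided exact permutation test, p = 0.0286, the smallest that 4 against 4 libraries allow, and 0.0429 after Benjamini-Hochberg adjustment over 6 genes).

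Against *Gzmc*, the balance shifted more. One *Gzmc* count stood against 127, 90.4, 104 and 119 *Gzmb* counts in mock and 45.5, 49.3, 41.0 and 48.2 in GC7 replicates. The groups did not overlap here, although the *Gzmc* levels did, and the log2 ratio rose by 1.25, or 2.38-fold (exact permutation test, p = 0.0286, adjusted p = 0.0429). For *Srgn*, the log2 ratio to *Gzmb* rose by 0.49, with 12.1 to 14.2 *Gzmb* counts for each *Srgn* count in mock and 11.4, 10.9, 5.70 and 9.82 in GC7 replicates (exact permutation test, p = 0.0286, adjusted p = 0.0429). Without GC7 replicate 3 the *Srgn* ratio rose by 0.27. For *Gzma* the ratio differed by -0.59 on the log2 scale (exact permutation test, p = 0.143, adjusted p = 0.171), or by -0.33 without GC7 replicate 3, and the groups overlapped. For *Gzmd* it differed by 0.40 (p = 0.286 by the same exact test, adjusted p = 0.286), and by 0.17 without mock replicate 2, 0.26 without GC7 replicate 2 and 0.67 without GC7 replicate 1.

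**Figure D3:**
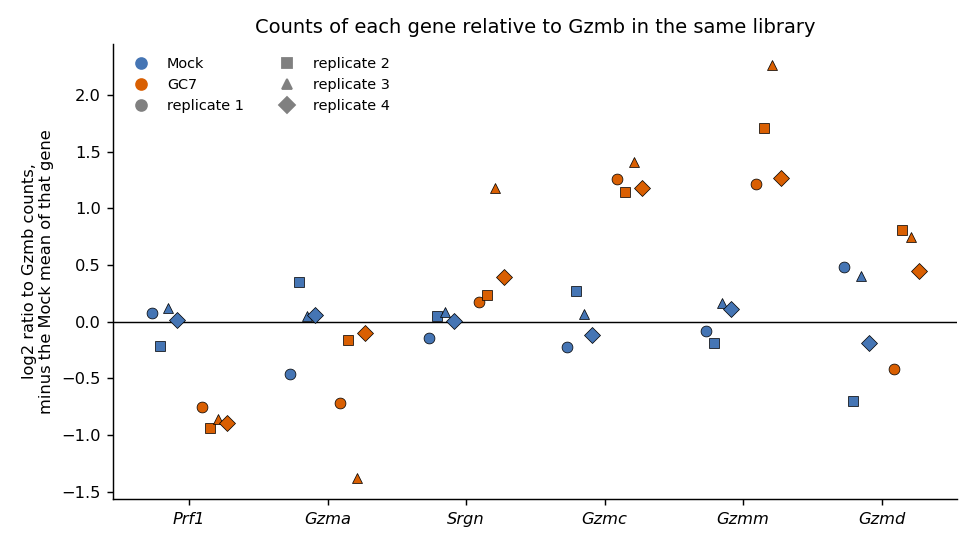
Log2 ratio of each gene's counts to *Gzmb* counts in the same library (y axis), minus the mock mean of that gene, for 6 genes with at least 10 counts in every library, in mock (blue) and GC7 (orange) replicates 1 to 4. *Prf1* lies lower and *Srgn*, *Gzmc* and *Gzmm* lie higher in all 4 GC7 libraries, while *Gzma* and *Gzmd* overlap.

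Together the 10 genes took 0.508%, 0.5%, 0.434% and 0.457% of all counts in mock replicates 1 to 4. In the GC7 replicates they took 0.400%, 0.378%, 0.236% and 0.355%. The groups did not overlap, and *Gzmb* alone made up 89.4% to 90.7% of those counts in mock and 82.4% to 88.9% with GC7. To compare genes with one another, scaled CPM was divided by exonic length. Within the 8 granzymes, *Gzmb* held 97.2% to 98.1% of this length-corrected pool in mock and 95.7% to 96% with GC7. *Gzmc* held 1.24% to 1.73% in mock and 3.13% to 3.75% with GC7, again without overlap. In both groups *Gzmb* was thus nearly the whole granzyme message, and *Gzmc* the next.

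In scaled CPM per kilobase, the order in mock libraries was *Gzmb* (3091 ± 282), *Srgn* (157 ± 12.7), *Gzmc* (45.9 ± 9.18), *Prf1* (31.2 ± 2.69) and *Gzma* (26.6 ± 6.83). The libraries of *Prf1* and *Gzma* overlapped, and no other neighbours among these 5 did. In GC7 libraries the levels per kilobase were 2024 ± 480 for *Gzmb*, 141 ± 7.67 for *Srgn*, 70.1 ± 13.6 for *Gzmc*, 12.6 ± 5.95 for *Gzma* and 11.3 ± 2.90 for *Prf1*, where the last pair again overlapped. *Gzmc* stood 1.47-fold above *Prf1* in mock. In GC7 libraries it stood 5.57-fold above *Gzma*, the next gene down. The remaining 5 granzymes all had means under 1.5 CPM per kilobase in both groups.

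Of the granzymes below the filter, *Gzmm* was the only one whose groups did not overlap with counts in every library. Granzyme M, which cleaves after methionine and leucine and is best known from NK cells, is encoded on chromosome 10 apart from the other families (ENSMUSG00000054206, chr10:79689020-79695261). It had 21, 24, 23 and 22 counts in mock replicates 1 to 4. The GC7 replicates had 40, 57, 40 and 43 counts. Summed over each group these were 90 and 180 counts, a rate 2.0-fold higher (95% interval 1.55 to 2.61, counting error only). In fits with looser filters *Gzmm* was called higher, with a log2 fold change of 1.0 (adjusted p = 0.000412, edgeR without a filter, where 11.8% of 28350 genes were called higher) and 0.99 (adjusted p = 0.000944, edgeR with filterByExpr, where 19.3% of 14517 genes were). Its log2 ratio to *Gzmb* rose by 1.62, or 3.07-fold (exact permutation test, p = 0.0286, adjusted p = 0.0429). The fit without a filter gave *Gzma* an SE of 0.101, against 0.303 in the main fit. Adjusted p-values without a filter are thus not comparable with those of the main test.

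Granzyme K, like granzyme A a protease that cleaves after basic residues and its neighbour on chromosome 13, was close to absent. *Gzmk* (ENSMUSG00000042385, chr13:113171608-113225908) had 1, 2, 3 and 2 counts in mock and 0 in each GC7 replicate. No fold is given, since no library exceeded 3 counts, which is the limit a count of 0 allows. The gene overlaps *Esm1* on the opposite strand, and the strand setting of the counting is not given in the sources used here.

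The cluster relatives of *Gzmc* were scarce. *Gzmd* (ENSMUSG00000059256, chr14:56129556-56132608) had 30, 16, 26 and 17 counts in mock and 12, 29, 13 and 23 in GC7 replicates, fully overlapping. *Gzme* (ENSMUSG00000022156, chr14:56117626-56120625) had 10, 11, 6 and 1 counts in mock and 5, 8, 3 and 8 in GC7 replicates, also overlapping. *Gzmf* (ENSMUSG00000015441, chr14:56205263-56211417) had 7, 4, 5 and 5 counts in mock and 6, 8, 11 and 20 in GC7 replicates, overlapping only in the lowest GC7 library. None was called without a filter, with log2 fold changes of -0.23 for *Gzmd* (adjusted p = 0.62), -0.22 for *Gzme* (0.787) and 1.07 for *Gzmf* (0.0863) in edgeR's test. Transcripts of *Gzmd* and *Gzme* share 93.8% identity over 928 bases, and no tested granzyme had such a near copy. In exact windows of 100 bases, however, *Gzme* shared 0 of 817 with the other genes compared. *Gzmd* shared 2 of 865, with *Gzmg* and not with *Gzme*. Whether reads were split or dropped between these genes was not tested.

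*Gzmb* and *Gzmc*, which moved in opposite directions, lie only 24.2 kb apart in the same cluster. On chromosome 14 the cluster runs from *Gzmb* through *Gzmc*, *Gzmf*, *Gzmn*, *Gzmg* and *Gzmd* to *Gzme* over 145 kb (56117626 to 56262260), all on the minus strand. Beyond *Gzme* lie *Ctsg* and the mast cell proteases. Of 8 such proteases listed as a check (*Gzmg*, *Gzmn*, *Ctsg*, *Cma1*, *Mcpt1*, *Mcpt2*, *Mcpt4* and *Mcpt8*), none passed the filter, and the highest, *Gzmg*, reached 14 counts. With the 6 cluster granzymes other than *Gzmb* summed to 1 row, the log2 fold change was 0.58 (adjusted p = 0.00396, edgeR). *Gzmc* supplied nearly all of that row (3507 counts in mock, 5338 in GC7 libraries), so the value largely repeats that of *Gzmc* alone (0.61). Of the others, *Gzmd* (89 and 77), *Gzme* (28 and 24) and *Gzmg* (30 and 12) had fewer counts with GC7. *Gzmf* (21 and 45) had more, and *Gzmn* was close to absent. Genes beside the other loci moved in both directions. Within 100 kb of *Gzmm*, *Bsg* (log2 fold change -1.39), *Rnf126* (-0.87), *Tpgs1* (-0.60) and *Palm* (-0.40) were lower, *Cdc34* (0.44), only 0.622 kb away, and *Polrmt* (0.39) were higher, and *Hcn2* was not called. Beside *Srgn*, *Supv3l1* (0.57) and *Ddx21* (0.57) were higher, *Vps26a* (-0.25) and *Kif1bp* (-0.30) lower and *Ddx50* not called, and the 1 tested neighbour of *Prf1*, *Adamts14*, was not called (-0.42, adjusted p = 0.0352, edgeR).

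The 250 bases before the start sites of the 3 genes that fell and of *Gzmc*, which rose, are shown to set the promoters of these differently moving genes side by side (RefSeq, GRCm38.p6, gene strand, 5′ to 3′). Capitals mark TGTGGT or its reverse complement (the letters bound by Runx factors), TGANTCA (AP-1) and TGGAAA or its reverse complement (NFAT).
Gzmb (chr14:56262335-56262584, minus strand): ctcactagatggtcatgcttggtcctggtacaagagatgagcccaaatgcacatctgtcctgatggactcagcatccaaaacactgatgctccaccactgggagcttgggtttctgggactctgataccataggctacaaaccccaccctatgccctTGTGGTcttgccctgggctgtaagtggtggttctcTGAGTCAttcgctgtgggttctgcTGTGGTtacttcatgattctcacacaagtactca
Prf1 (chr10:61297586-61297835, plus strand): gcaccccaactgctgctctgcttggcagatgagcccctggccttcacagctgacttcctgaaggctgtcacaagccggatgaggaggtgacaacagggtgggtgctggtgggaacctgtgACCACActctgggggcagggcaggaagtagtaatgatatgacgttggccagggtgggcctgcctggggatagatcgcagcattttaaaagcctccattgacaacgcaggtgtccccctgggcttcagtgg
Gzma (chr13:113100982-113101231, minus strand): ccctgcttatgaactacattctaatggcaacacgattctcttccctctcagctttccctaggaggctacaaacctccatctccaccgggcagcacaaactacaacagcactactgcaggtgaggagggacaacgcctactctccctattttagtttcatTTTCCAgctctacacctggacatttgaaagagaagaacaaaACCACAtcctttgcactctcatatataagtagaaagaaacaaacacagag
Gzmc (chr14:56234658-56234907, minus strand): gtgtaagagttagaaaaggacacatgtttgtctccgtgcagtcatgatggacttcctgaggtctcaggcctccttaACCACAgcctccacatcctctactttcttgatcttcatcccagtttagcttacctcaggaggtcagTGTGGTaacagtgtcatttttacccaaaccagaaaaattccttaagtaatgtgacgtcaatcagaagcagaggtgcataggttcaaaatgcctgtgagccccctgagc
The search took both strands of the 300 bases from 250 before to 50 after each start. All 10 genes had an entry, with 12 windows, since *Gzmm* and *Srgn* each have more than one start site. The Runx letters were found in windows of 9 genes, all but *Gzmk*, against 16.8% of all 32851 promoters. *Gzmb* held them at positions -93 and -34 from the start site, and was the only one with the AP-1 letters (position -58), which 7.81% of all promoters hold. *Gzmc* held the Runx letters at -174 and -108, *Gzma* at -50, with the NFAT letters (21.4% of all promoters) at -91. Windows of *Gzmc* and *Gzmd* were 82.7% identical and those of *Gzmd* and *Gzme* 93.4%, so matches in this cluster are not independent, whereas *Gzmb* was 43.6% to 48.0% identical to its cluster relatives. T-box letters (GGTGTGA) were in windows of 2 genes (3.98% of all promoters), STAT letters (TTCNNNGAA) in 2 (8.3%) and hypoxia response letters (ACGTG or GCGTG) in 3 (43.8%). RefSeq places the start of *Gzmb* 74 bases before Ensembl's. A match describes letters and no binding was measured.

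The machinery around the granule proteins was read from lists of genes by role, each to be set against the 23.5% of all tested genes called lower and 23.0% called higher. Of the genes that mature and sort granzymes, 7 of 8 were tested, 1 was lower and 0 higher, with a median log2 fold change of -0.10 against 0.02 over all genes. The lower one was *Gnptab* (-0.52, adjusted p = 0.000175, edgeR), part of the enzyme that makes the mannose 6-phosphate tag by which granzymes reach the granule. Its partner *Gnptg* was at -0.28 (adjusted p = 0.0117, edgeR), and was called without mock replicate 1 or GC7 replicate 3, without a filter and by DESeq2, and *Ctsc*, the protease that activates granzymes, at 0.03. Of the granule membrane genes, 5 of 7 were tested, 1 was lower and 2 higher (median 0.20). *Lamp1* (0.43), known at the surface of degranulating cells as CD107a, and *Lamp2* (0.25) were higher, while the proton pump subunit *Atp6v0a2* (-0.28) was lower. The *Atp6v0a2* call was lost with library totals, with a replicate block and without mock replicate 1, 3 or 4 or GC7 replicate 1, 3 or 4, and that of *Lamp2* without a filter, mock replicate 4 or GC7 replicate 4.

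Among 17 genes of granule exocytosis, all of them tested, 7 were lower and 0 higher, beside 23.5% and 23.0% of all tested genes, and the median log2 fold change was -0.12. *Sytl2*, which tethers Rab27a-bearing granules at the membrane, fell 2.08-fold from 63.4 ± 3.32 to 30.5 ± 5.41 scaled CPM (log2 fold change -1.05, adjusted p = 4.99e-06, edgeR). Also lower were *Stx11* (-0.80), a syntaxin of granule fusion, its partner *Stxbp2* (-0.61) and *Rab27a* (-0.35). *Unc13d*, which primes granules, was at -0.10, *Lyst* at 0.05 and *Ap3b1* at -0.12, and none of these was called.

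Serpins protect the killer cell from its own granule proteases. Of 6 listed, 5 were tested, 2 were lower and 2 higher (median 0.08; all genes, 23.5% and 23.0%). *Serpinb9*, the intracellular inhibitor of granzyme B, rose from 17.1 ± 1.95 to 31.7 ± 5.38 scaled CPM (log2 fold change 0.89, adjusted p = 6.55e-05, edgeR) while *Gzmb* itself fell. *Serpina3g*, an inhibitor of cathepsins in activated T cells, rose 2.32-fold from 34.3 ± 5.26 to 79.7 ± 16.2. *Serpinb1a*, best known as an inhibitor of neutrophil proteases, fell 9.33-fold from 45.2 ± 5.79 to 4.82 ± 0.772 scaled CPM (adjusted p = 1.22e-09, edgeR), and *Serpinb6a* was at -0.46.

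Of the enzymes that build the sugar chains of serglycin and other proteoglycans, 10 of 11 were tested, 4 were lower and 1 higher (23.5% and 23.0% over all tested genes), with a median of -0.25. *Chst12*, a chondroitin sulphotransferase, fell 2.17-fold from 54.7 ± 8.45 to 25.2 ± 1.48 scaled CPM (adjusted p = 1.68e-06, edgeR). *Xylt1*, which starts the chains, fell 2.02-fold from 7.20 ± 1.34 to 3.55 ± 0.527. Its relative *Xylt2*, more abundant at 31.3 ± 1.79 in mock and 29.1 ± 1.69 in GC7 libraries, was not called (-0.10, adjusted p = 0.234, edgeR). *B3gat3* (-0.54) and *Chsy1* (-0.49) were also lower, and *Csgalnact2* (0.46) was higher.

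Among transcription factors with known roles at these genes, 14 of 16 were tested, 6 were lower and 2 higher, where all genes gave 23.5% and 23.0% (median -0.13). *Prdm1*, encoding Blimp-1, a driver of effector differentiation, fell 2.46-fold from 55.6 ± 6.31 to 22.5 ± 1.63 scaled CPM (adjusted p = 1.85e-07, edgeR). *Runx3*, which sustains the cytotoxic programme of CD8 T cells, fell 1.96-fold from 246 ± 17.7 to 126 ± 16.5. *Tcf7*, encoding TCF-1 of naive and memory cells, rose 3.17-fold from 18.6 ± 2.11 to 58.9 ± 9.67 (adjusted p = 2.03e-07, edgeR), and *Bach2* was also higher (0.60). *Tbx21*, encoding T-bet, was at -0.08 (adjusted p = 0.527, edgeR), *Irf4* was at -0.09 (adjusted p = 0.369, edgeR), and *Eomes* fell below the filter. *Zeb2* also fell below the filter, with at most 72 counts in a library. It stood at 0.819 ± 0.443 scaled CPM in mock and 2.76 ± 0.306 in GC7 libraries, without overlap.

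Genes encoding known granzyme substrates, which killer cells express too, were all 12 tested, with 5 lower, 2 higher and a median of -0.21, against 23.5% lower and 23.0% higher among all genes tested. Among the lower ones were *Hmgb2* (-0.56) and *Ndufs3* (-0.39), substrates of granzyme A, and the lamins *Lmna* (-0.50) and *Lmnb1* (-0.44). The call of *Lmna* lay close to the threshold (adjusted p = 0.00893, edgeR). The list held 4 lower calls with library totals, and without mock replicate 1 or 4 or GC7 replicate 2, 3 or 4. *Bid* (0.42), which granzyme B cleaves, was among the higher ones.

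**Figure D4:**
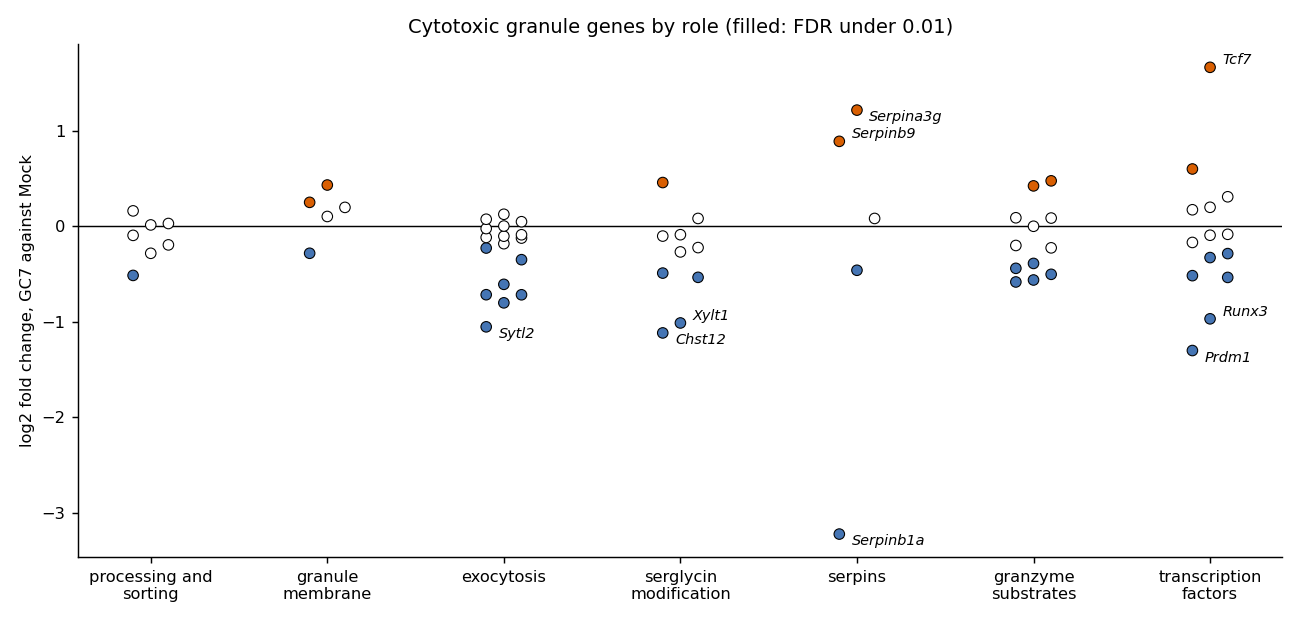
Log2 fold change (y axis, GC7 against mock, edgeR) of each tested gene in 7 lists of granule genes by role (x axis), filled blue (lower) or orange (higher) at an FDR under 0.01 and open otherwise. Exocytosis genes hold 7 lower and 0 higher calls of 17 (all tested genes, 23.5% lower and 23.0% higher), serpins hold both *Serpinb1a* at -3.22 and *Serpina3g* at 1.21, and *Tcf7* and *Prdm1* stand at opposite ends of the transcription factors.

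GC7 replicate 3 stood low for the mRNAs of *Prf1*, *Gzmb*, *Gzma* and *Gzmc*. Relative to the mean of the other 3 GC7 libraries, it held 0.278 times the *Gzma* level, 0.586 times the *Gzmb* and *Prf1* levels and 0.68 times the *Gzmc* level, against a median of 1.0 over all tested genes. Few genes were as low in it, 3 for *Gzma*, 69 for *Gzmb*, 66 for *Prf1* and 179 for *Gzmc*, each including the gene itself. *Srgn*, at 1.10 times, and the summed CD8 T cell markers, at 2640 against 2570 to 2760, did not share this. Of the genes below the filter, it was lowest of its group for *Gzme* (0.167 scaled CPM). It lay within the GC7 range for *Gzmm* (2.23, range 1.80 to 2.59), *Gzmf* (0.614, range 0.292 to 0.835) and *Gzmd* (0.725, range 0.584 to 1.32). Without this library, *Prf1* (log2 fold change -1.31, adjusted p = 1.5e-06), *Gzma* (-0.80, 0.00452) and *Gzmb* (-0.46, 0.00112) were still called lower and *Gzmc* (0.72, 0.000919) higher by edgeR's test. The part of this library's own state in these values was not tested.

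Genes with the most similar course over the 8 libraries were looked for among 10192 tested protein-coding genes, by the root mean square difference of log2 CPM, each gene centred on its mean. Among the nearest to *Gzmb* were *Slc35c2* (0.0916) and *C1qtnf6* (0.0950). For *Prf1* they were *Rhoq* (0.0618), *Lair1* (0.114) and the glucose transporter gene *Slc2a1* (0.114), which fell by 1.37 on the log2 scale. The closest to *Gzma* were *Acoxl* (0.323), *Gpat3* (0.332) and *Ifi208* (0.354), at larger distances. *Srgn* was nearest to *Oser1* (0.0259), *Idh3b* (0.0292) and *Cct5* (0.0326). The other granule genes lay farther from *Gzmb*, with *Srgn* at 0.382, *Prf1* at 0.440, *Gzma* at 0.508 and *Gzmc* at 0.643. All these genes share libraries and the group difference, so the distances are a description.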

How the data were processed

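Messenger RNA was measured in 8 libraries of OT-1 CD8+ T cells, 4 GC7 and 4 mock, grouped by the sample labels. The authors deposited raw counts per Ensembl gene, 1 table per library, unnormalised and unpooled, after trimming with Cutadapt, alignment to GRCm38 with STAR and counting with featureCounts. Strand setting and handling of multiply mapped reads are not given in the sources used here. The deposited counts were scaled with TMM factors and tested in edgeR (version 4.0.16, R 4.3.3) by its quasi-likelihood F test, with group as the only covariate, and adjusted by Benjamini and Hochberg's method over the 11189 genes above 3 CPM in at least 4 libraries. A gene was called at an FDR under 0.01, and changes over 2-fold were counted apart. At 3 CPM a gene has 52.6 to 75.9 counts, and intervals cover counting error only. Ratios to *Gzmb* used log2 of counts plus 0.5 and two-sided exact permutation tests, adjusted over 6 genes (threshold 0.05).

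The genes and lists were chosen with earlier results of these data known. Named are all 10 genes, listed genes past FDR 0.01 and 2-fold (or the 2 largest changes of a list without any), the 3 most similar genes and tested neighbours within 100 kb. Other listed genes that are named (such as *Serpinb9*, *Runx3*, *Stx11*, *Stxbp2*, *Rab27a*, *Unc13d*, *Lyst*, *Ap3b1*, *Ctsc*, *Xylt2*, *Tbx21*, *Irf4*, *Eomes*, *Zeb2* and the remaining called genes of short lists) were picked once their values had been seen. The tests were also run on data simulated from the levels and spread of these libraries. Near-identical copies (at least 200 bases at 90% identity) were sought with BLAST (version 2.17.0). All 55536 identifiers matched the reference annotation. Protein sequences were not used here, and a few genes that the rule names are not reported here. Alternatives were RLE factors, library totals, TMM without mitochondrial genes, no filter, filterByExpr, DESeq2 (version 1.42.0), limma-voom (version 3.58.1), robust estimation, a replicate block, summed cluster granzymes and each library left out. One setting, mock replicate 2 and GC7 replicate 3 left out together, was added after seeing the data.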

Additional observations from a re-analysis of the deposited data

Results flagged for a closer look

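Outlying libraries were sought in 50 groups of 4 libraries. These held the levels of the tested granule genes and of the listed genes named by rule, the ratios to *Gzmb* and the share of all counts. In 6 of the 50, all of them gene levels, 1 library stood apart from the other 3. The measure was the gap to its nearest neighbour over the whole range (Dixon's ratio), where chance gives about 1 in 20, or 2.5 of 50. All 6 were mock replicate 2. It was the highest mock library for *Gzmc* (0.861), *Srgn* (0.891), *Chst12* (0.862) and *Hmgb2* (0.839), and the lowest for *Gnptab* (0.839) and *Atp6v0a2* (0.902). Without it, the log2 fold change of *Gzmc* was 0.77 and that of *Srgn* -0.09. GC7 replicate 3, the lowest GC7 library for *Prf1*, *Gzmb*, *Gzma* and *Gzmc*, did not exceed the critical value in any of these groups.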

How the results depend on the processing

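The directions of the 5 tested genes and of the 6 ratios to *Gzmb* were the same under every alternative run, and *Prf1* was called under each. Library totals in place of TMM ended the calls of *Gzma* (log2 fold change -0.97) and *Gzmb* (-0.51), leaving 1 gene lower, and DESeq2 ended that of *Gzma* (-1.09). Genes called higher numbered 2 without a filter and 2 with filterByExpr, since *Gzmm* was then tested, and 0 where more than 2-fold was asked for. Leaving out 1 library at a time gave log2 changes from -1.25 to -0.80 for *Gzma*, -0.71 to -0.46 for *Gzmb*, 0.50 to 0.77 for *Gzmc*, -1.60 to -1.31 for *Prf1* and -0.19 to -0.09 for *Srgn*, with 2 to 3 genes lower and 0 to 1 higher. Over all lists it gave 22 to 28 genes lower and 8 to 11 higher, beside 26 and 9 with all libraries. With mock replicate 2 and GC7 replicate 3 both left out, 29 listed genes were lower and 14 higher, and calls over all tested genes also rose, from 2635 lower and 2579 higher to 3149 and 3223. With 3 against 4 libraries a ratio's exact permutation test cannot fall below p = 0.0571.

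Same-numbered mock and GC7 libraries did not all deviate together (correlations of 0.272, -0.116, 0.202 and -0.183). These correlations cannot tell whether same-numbered libraries share a mouse or culture, which the methods do not say. A replicate block in the model gave log2 changes of -1.15 for *Gzma*, -0.64 for *Gzmb*, 0.61 for *Gzmc*, -1.49 for *Prf1* and -0.15 for *Srgn*, and no call among these genes changed. Depth limits the 5 granzymes below the filter, which had 1 to 57 counts where they had any.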

Other observations

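*Gzmg*, a cluster granzyme outside the 10 genes, had 11, 5, 0 and 14 counts in mock replicates 1 to 4 and 3, 3, 2 and 4 in GC7 replicates. *Gzmn* had 1 count in all 8 libraries together.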
